A study of Homo sapiens with 6 samples.

Results

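Transcripts of 35 genes of striated muscle were followed through 6 subcutaneous tumours of a human pancreatic cancer cell line. The genes were chosen by symbol, and each of the 35 had 1 line in a count table of 57773 genes. The tumours grew in nude mice, which lack a thymus and mature T cells and keep their myeloid, natural killer and B cells, and came from the PATU line of pancreatic ductal adenocarcinoma. All 6 carried a doxycycline-inducible short hairpin RNA that targets ME3, a malic enzyme of mitochondria. The hairpin was left uninduced in 4 tumours (off dox) and induced with doxycycline in 2 tumours (on dox). The labels name no tumour with a control hairpin or with none, so effects of the drug, of hairpin expression and of lower ME3 cannot be told apart. The age of the mice, the dose and duration of doxycycline, and whether tumours shared a mouse are not stated.

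Skeletal muscle contracts when thick filaments of myosin pull on thin filaments of actin that are anchored in Z-discs. Calcium released from the sarcoplasmic reticulum binds troponin C and so opens the thin filament to myosin, and calcium pumps end the contraction. Fast and slow fibres use different genes for many of these parts, such as separate heavy chains and separate troponins. Carcinoma cells are not a muscle tissue, while mice carry a sheet of striated muscle, the panniculus carnosus, within the skin under which these tumours were grown. The sources used here do not say how mouse reads were handled, so a count on a human gene can hold reads of tumour cells and reads of host cells. Whether a muscle count came from mouse or human RNA was not tested. In bulk RNA, fewer cells of a type and less RNA per cell cannot be told apart.

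Total counts were 23855338 to 26885699 per tumour. Levels are given as CPM, counts per 1000000 of the TMM-scaled library, and a count of 3, the floor used here, was 0.114 to 0.123 CPM. ME3 was at 44.2, 44.1, 38.6 and 37.9 CPM in off-dox tumours 1 to 4 and at 33.3 and 28.5 CPM in on-dox tumours 1 and 2. Its log2 fold change was -0.41 (SE 0.12), which did not pass over all genes (edgeR adjusted p = 0.148; two-sided exact permutation p = 0.0667, the smallest that the 15 splits allow). The genes KRT8 (690 to 1050 CPM) and KRT18 (368 to 506 CPM), which encode keratins of simple epithelium, were abundant in all 6 tumours. Of the other keratins on the carcinoma list, KRT7 was at 0.229 to 1.58 CPM, and KRT19, a defining keratin of ductal cells, had 1 count in on-dox tumour 1 and 0 elsewhere.

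Most of the muscle RNA was counted in 1 tumour. Summed over the 35 genes, the level was 209, 483, 227 and 2729 CPM in off-dox tumours 1 to 4 and 249 and 225 CPM in on-dox tumours 1 and 2. Off-dox tumour 4 thus held 66.2% of the sum over the 6 tumours, and off-dox tumour 2, next in order, held 11.7%. In off-dox tumour 4 the 35 genes took 0.274% of all counts, against 0.0202% to 0.0480% in the other 5 tumours. In 27 of the 35 off-dox tumour 4 stood apart from the rest of its group by Dixon's ratio. Any off-dox tumour did so, high or low, in 5.21% of genes tested. The highest CPM lay in off-dox tumour 4 for 32 of the 35 genes, against 13.3% of the 21308 genes tested. All 35 genes had counts there, while 10 had none in off-dox tumour 1, 6 in off-dox tumour 3 and 4 in each on-dox tumour. Off-dox tumour 2 lacked counts for 1 gene, TRDN. The median gene was at 15.4 CPM in off-dox tumour 4, 3.08 CPM in off-dox tumour 2, and 0.154, 0.206, 0.232 and 0.810 CPM in off-dox tumours 1 and 3 and on-dox tumours 1 and 2.

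**Figure D1:**
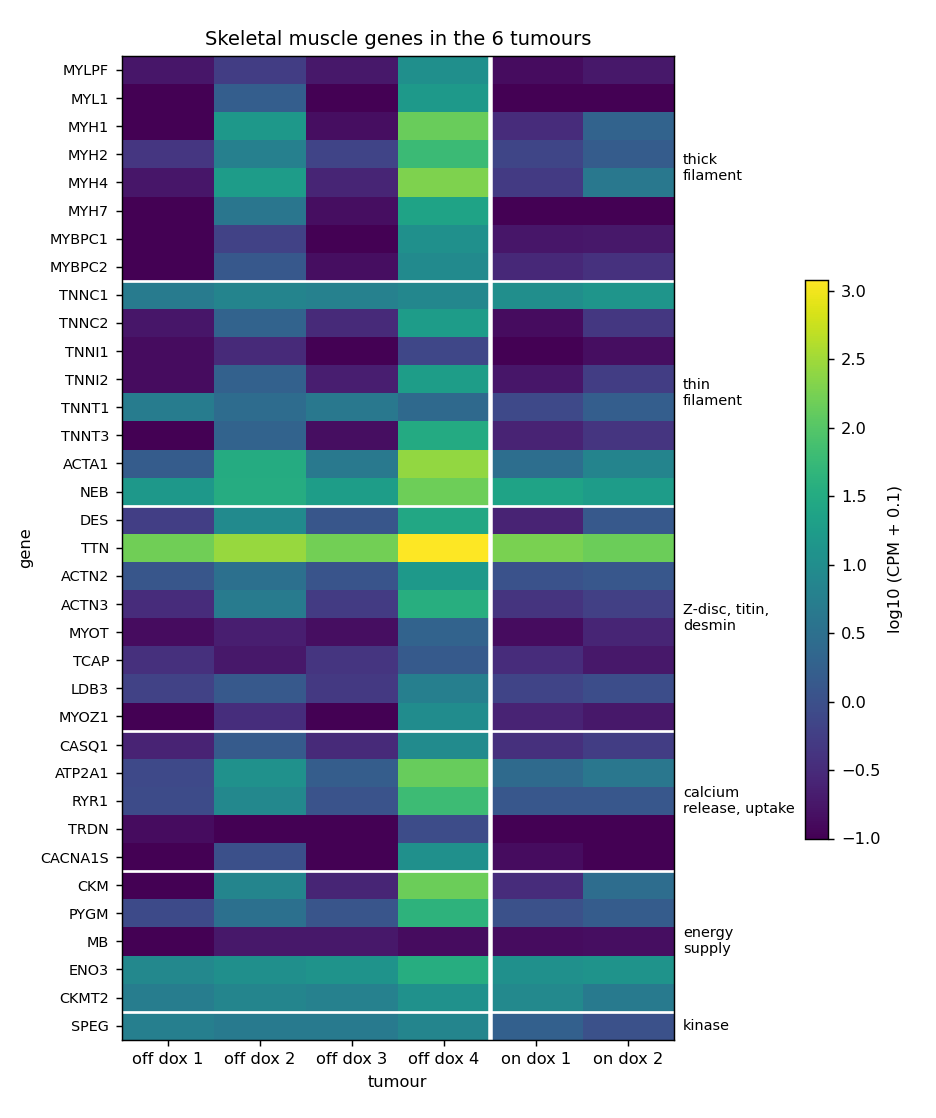
Level of each of the 35 genes (rows, grouped by role) in each tumour (columns), coloured by log10 of CPM plus 0.1. The column of off-dox tumour 4 is the brightest for 32 genes, off-dox tumour 2 is second for most of the contractile genes, and TNNC1, TNNT1, CKMT2 and SPEG are visible in every tumour.

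Thick filament genes were nearly uncounted in off-dox tumours 1 and 3. Summed over 8 genes, their level was 467 CPM in off-dox tumour 4, 46.1 CPM in off-dox tumour 2, at most 0.947 CPM in the other off-dox tumours, and 1.55 and 8.02 CPM on dox. MYH4, the fast heavy chain of type IIB, was at 0.0769, 17.7, 0.165 and 196 CPM off dox and at 0.387 and 4.21 CPM on dox. In mice type IIB is a main heavy chain of fast muscles, whereas human limb muscle makes little MYH4 protein. MYH1, the type IIX heavy chain, was at 141 CPM in off-dox tumour 4 and at 0 to 14.8 CPM in the others. The type IIA gene MYH2 was at 61.0 CPM there and at 0.346 to 5.96 CPM elsewhere. Slow fibres use MYH7, which stood at 23.6 CPM in off-dox tumour 4, 3.97 CPM in off-dox tumour 2 and 0.0412 CPM in off-dox tumour 3. It was uncounted in the remaining 3.

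The light chains and the myosin-binding proteins had the same order of tumours at the top. MYL1, an essential light chain of fast fibres, had 403 counts in off-dox tumour 4, 38 in off-dox tumour 2 and none in the other 4 tumours. MYLPF, the fast regulatory light chain, was at 10.7 CPM in off-dox tumour 4 and at 0.0387 to 0.446 CPM elsewhere. MYBPC2, the fast myosin-binding protein C, was at 8.97 CPM and MYBPC1, its slow relative, at 11.1 CPM in off-dox tumour 4, and neither passed 1.22 CPM in another tumour. So the thick filament set of off-dox tumour 4 held members of fast and of slow fibres.

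The mixture of heavy chains could be compared in the 3 tumours with more than 100 counts over the 4 heavy chain genes. Of 11034 such counts in off-dox tumour 4, MYH4 took 46.4% (exact 95% interval 45.5 to 47.4), MYH1 33.5% (32.6 to 34.3), MYH2 14.5% (13.8 to 15.2) and MYH7 5.61% (5.19 to 6.06). Of 1046 counts in off-dox tumour 2, MYH4 took 41.8% (38.8 to 44.8), MYH1 34.8% (31.9 to 37.8), MYH2 14.1% (12.0 to 16.3) and MYH7 9.37% (7.67 to 11.3). The intervals of these tumours overlapped for MYH1 and MYH2 and did not for MYH4 and the slow MYH7, whose share was larger in off-dox tumour 2. On-dox tumour 2 had 187 such counts, 55.6% of them from MYH4 (48.2 to 62.9), 25.1% from MYH1 (19.1 to 32.0) and 19.3% from MYH2 (13.9 to 25.6). None of its 187 came from MYH7, which allows a share of up to 1.60%, below the interval of either off-dox tumour. The other 3 tumours had 11, 20 and 32 such counts, and MYH2 gave 9, 14 and 16 of these. These intervals compare libraries, not conditions, and cover counting error only. Heavy chain genes are close in sequence, and how reads that match several of them were counted is not stated, so the split between them is uncertain.

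**Figure D2:**
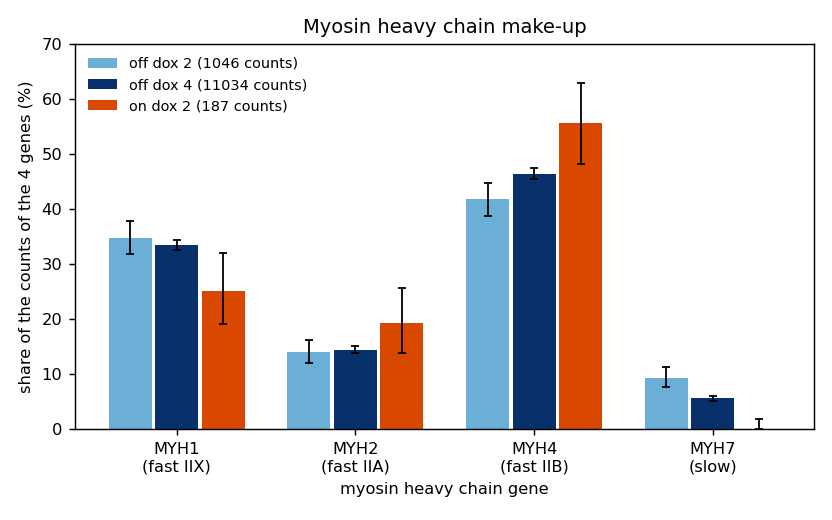
Share of the counts of 4 myosin heavy chain genes (percent, bars from 0, exact 95% binomial intervals) in the 3 tumours with more than 100 such counts. MYH4 leads in each, and MYH7 is at 9.37%, 5.61% and 0% in off-dox tumour 2, off-dox tumour 4 and on-dox tumour 2.

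Thin filament genes split into those that were high in off-dox tumour 4 and those that were not. ACTA1, skeletal muscle actin, was at 1.46, 32.0, 4.32 and 267 CPM off dox and at 2.87 and 6.93 CPM on dox. It was the most abundant member per kilobase in off-dox tumour 4, at 179 CPM per kb, followed by CKM at 87.1 and MYH4 at 32.5 CPM per kb. The fast troponins TNNC2 (calcium-binding), TNNI2 (inhibitory) and TNNT3 (tropomyosin-binding) were at 17.7, 18.9 and 30.8 CPM there and at no more than 1.87 CPM in any other tumour. NEB, the giant protein that spans the thin filament, was at 153 CPM in off-dox tumour 4 and was also counted at 14.7 to 33.2 CPM in the others. Per kilobase NEB was at 5.01 CPM per kb there and at 0.480 to 1.09 CPM per kb elsewhere.

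The slow troponin genes TNNC1 and TNNT1 did not share this pattern. TNNC1, the troponin C of slow and cardiac muscle, was at 4.96, 6.81, 6.05 and 7.63 CPM off dox and at 10.2 and 13.5 CPM on dox, so its highest levels lay in the tumours on dox. TNNT1, slow troponin T, was at 5.08, 2.68, 4.16 and 2.40 CPM off dox and at 0.697 and 1.54 CPM on dox, with off-dox tumour 4 the lowest of its group. Slow troponin I, TNNI1, was also highest in off-dox tumour 4, with 17 counts, then in off-dox tumour 2, with 5, and had 0 or 1 in the others. Because of TNNC1 and TNNT1, the 12 fast genes made up 94.0% of the summed fast and slow level per kilobase in off-dox tumour 4 and 68.9% in off-dox tumour 2, but 7.63% to 22.5% in the other 4 tumours. Not divided by length, the fast share in those 4 was 14.4% to 48.3%. In those 4 tumours TNNC1 and TNNT1 gave at least 99.9% of the slow level.

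At the Z-disc, the fast alpha-actinin gene ACTN3 was at 36.3 CPM in off-dox tumour 4, 4.87 CPM in off-dox tumour 2 and 0.231 to 0.486 CPM in the other 4. ACTN2, the alpha-actinin of all fibre types, was at 15.3 CPM in off-dox tumour 4 and at 0.968 to 3.08 CPM elsewhere. The Z-disc genes MYOZ1 and LDB3 were at 9.38 and 5.68 CPM in off-dox tumour 4, while MYOT and TCAP reached only 1.91 and 1.34 CPM. MYOZ1 had the largest gap of the 35, 38.6-fold over the highest other tumour. DES, the muscle intermediate filament desmin, was at 0.462, 8.96, 1.15 and 27.6 CPM off dox and at 0.155 and 1.30 CPM on dox. Its excess in off-dox tumour 4 over off-dox tumour 2 was 3.08-fold, less than that of MYH1 (9.54-fold), ACTN3 (7.46-fold) or CKM (20.7-fold).

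TTN, the spring protein titin that runs from Z-disc to mid-filament, had the largest counts of all members. It was at 158, 283, 162 and 1205 CPM off dox and at 181 and 144 CPM on dox. Per kilobase it was at 10.1 CPM per kb in off-dox tumour 4 and at 1.21 to 2.38 CPM per kb in the others. TTN and NEB were also counted where the heavy chains were nearly absent: off-dox tumour 1 had 4110 counts of TTN and 381 of NEB, and 0 of MYH1. TTN shares 9.57% of its exon bases with the antisense gene TTN-AS1 in the reference annotation, and without a stated strand setting their reads cannot be told apart. Without TTN, off-dox tumour 4 held 76.7% of the summed level, off-dox tumour 2 held 10.1%, and the other 4 held 2.54% to 4.08% each in place of 5.06% to 6.05%.

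Genes of calcium handling separated off-dox tumour 4 as the thick filament genes did. Summed over 5 genes, they were at 1.65, 21.9, 2.68 and 219 CPM off dox and at 3.95 and 5.71 CPM on dox. ATP2A1, the calcium pump of fast fibres, was at 136 CPM in off-dox tumour 4, 11.7 CPM in off-dox tumour 2 and 0.692 to 4.09 CPM elsewhere. RYR1, the release channel of the reticulum, was at 61.9 and 7.99 CPM in off-dox tumours 4 and 2 and at 0.769 to 1.18 CPM in the others. CACNA1S, the voltage sensor of the surface membrane, had 289 and 22 counts in off-dox tumours 4 and 2 and at most 1 in any other tumour. The calcium-storing CASQ1 was at 9.04 CPM in off-dox tumour 4, and TRDN, which ties it to the channel, had 21 counts there and 1 in the remaining 5 tumours together.

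Energy genes differed among themselves. CKM, the cytosolic muscle creatine kinase, was at 0, 6.97, 0.165 and 144 CPM off dox and at 0.232 and 2.80 CPM on dox. PYGM, muscle glycogen phosphorylase, was at 44.1 CPM in off-dox tumour 4 and at 0.731 to 3.12 CPM elsewhere. ENO3, muscle enolase, was at 35.4 CPM there, but at 7.89 to 12.4 CPM in every other tumour. On the opposite strand PFN1, with 54319 counts over the 6 tumours, covers 2.59% of its exon bases, as RIF1 covers 0.543% of those of NEB. CKMT2, the mitochondrial creatine kinase of striated muscle, ranged from 4.70 to 11.3 CPM. MB, the oxygen store myoglobin, had 0 to 2 counts in each tumour, off-dox tumour 4 included, which is at or under the floor.

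SPEG encodes a kinase of striated muscle that helps organise the membranes next to the myofibril. It was at 5.62, 4.78, 4.73 and 7.06 CPM off dox and at 1.70 and 0.932 CPM on dox. The groups did not overlap, and off-dox tumour 4 was 1.26-fold above the next tumour. The spread of SPEG over the off-dox tumours (5.55 ± 1.08 CPM, SD, n = 4) was small beside that of the contractile genes, for example 53.4 ± 95.1 CPM for MYH4 or 76.3 ± 128 CPM for ACTA1 (SD, n = 4).

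The 2 tumours with the most muscle RNA differed by a factor that varied between genes. Of 27 genes of the set with at least 20 counts in off-dox tumour 2, 26 were higher in off-dox tumour 4, by a median of 7.46-fold and by up to 20.7-fold for CKM; TNNT1 was at 0.898-fold. On dox, tumour 2 exceeded tumour 1 by 12.0-fold for CKM, 10.9-fold for MYH4, 8.37-fold for DES and 8.19-fold for MYH1, ratios that rest on 6, 10, 4 and 6 counts in tumour 1. It exceeded tumour 1 by 2.42-fold for ACTA1 and 1.65-fold for ATP2A1, while RYR1 was at 1.16 and 1.18 CPM in tumours 1 and 2. Other genes were lower in tumour 2, with ratios of 0.796 for TTN, 0.772 for NEB, 0.567 for CKMT2 and 0.547 for SPEG.

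Across the whole table, few genes stood out in off-dox tumour 4 and nearly all were of striated muscle. Among 11243 genes with at least 5 CPM in this tumour, 33 were at least 3-fold above the highest of the other 5 tumours, and 25 of these 33 were among the 35 genes. By the same measure 5, 0 and 9 genes stood out in the remaining off-dox tumours and 3 and 1 on dox, with none of the 35 genes among them. The 8 other genes in off-dox tumour 4 were cardiac actin ACTC1 (37.5 CPM there, at most 3.77 CPM elsewhere), the heavy chains MYH13, MYH8, MYH3 and MYH6, the Z-disc and attachment genes NRAP and XIRP2, and ACTG1P21, an actin pseudogene. MYH13, MYH8, MYH3 and MYH6 were at 28.3, 22.4, 21.1 and 16.8 CPM in off-dox tumour 4. Muscle actin and heavy chain genes have near-identical relatives, so the counts of ACTC1, ACTG1P21 and of these heavy chains may include reads of the muscle members named above. MYH6, the neighbour and close copy of MYH7, had 441 and 81 counts in off-dox tumours 4 and 2 beside 619 and 98 of MYH7, and 0 where MYH7 had 0. Whether any of these reads were assigned to the wrong gene was not tested. The next genes in order were ALDOAP2, an aldolase pseudogene, at 2.98-fold and NDRG2 at 2.85-fold.

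**Figure D3:**
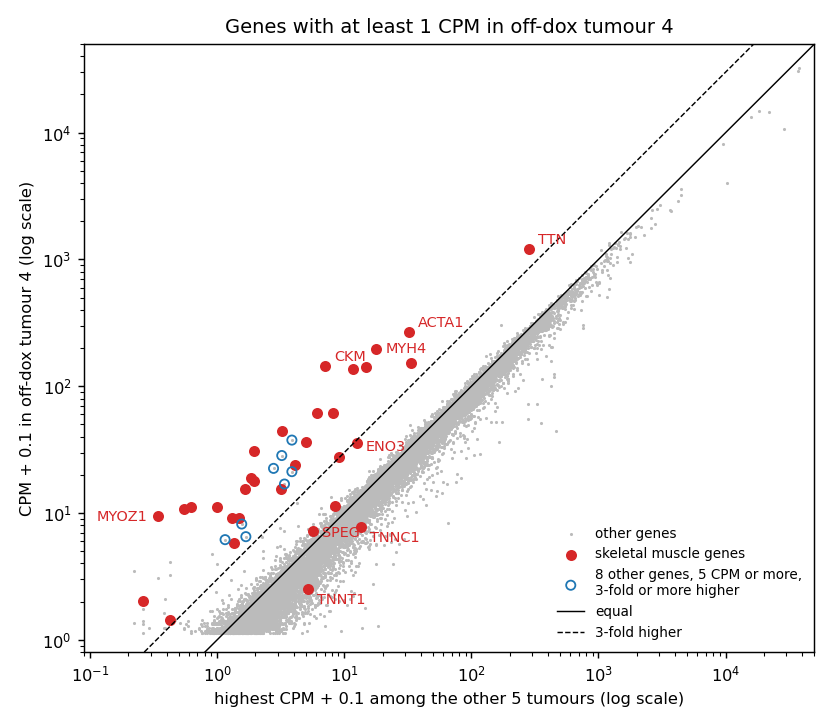
CPM plus 0.1 in off-dox tumour 4 (vertical) against the highest CPM plus 0.1 of the other 5 tumours (horizontal), both on log scales, for genes with at least 1 CPM in off-dox tumour 4. Of the 33 genes with at least 5 CPM above the dashed 3-fold line, 25 are skeletal muscle genes of the set (red) and 8 are others (blue rings), while TNNC1 and TNNT1 lie below the line of equality.

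Further striated muscle genes, from a list of 66, showed the same tumour on top but were a mixed group. Of these 66, 42 had their highest CPM in off-dox tumour 4, where 6 had no counts, against 10 to 18 in each of the other tumours. XIRP2 had 212 counts in off-dox tumour 4, 36 in off-dox tumour 2 and 0 to 2 elsewhere, and the sodium channel gene SCN4A had 121, 20 and 0 to 3. The calcium buffer PVALB, typical of mouse fast fibres, had 78 counts in off-dox tumour 4, 6 in off-dox tumour 2 and none elsewhere. AMPD1, muscle AMP deaminase, had 89 counts there and no more than 3 elsewhere. Abundant genes of the list were spread over all tumours, with FHL1 at 212 to 276 CPM, PFKM at 78.1 to 120 CPM and PHKA1 at 26.7 to 40.9 CPM, so the summed level of the list was 687 CPM in off-dox tumour 4 and 495 to 530 CPM in the others.

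Among regulators of the muscle lineage, the late regulator MYF6 had 33 counts in off-dox tumour 4, 3 in off-dox tumour 2 and 0 elsewhere. MSTN, the growth inhibitor myostatin made by muscle fibres, had 27 counts in off-dox tumour 4 and 1 to 4 in the others. MYOD1 and PAX7, which mark myoblasts and satellite cells, had 1 count each over the 6 tumours, and MYF5 had 0. MYOG, the regulator of fusion, had 0 to 7 counts. Of the 19 genes of this list, 6 passed the low-count filter. None of these was called on against off dox by edgeR's test, and MEF2A, SIX4 and MEF2D were among the most abundant, at 30.1 to 60.6 CPM.

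Promoter windows of 300 bases, from 250 before to 50 after the annotated start, were at hand for 23 of the 35 genes (31 windows, RefSeq, human build GRCh38.p14). The windows of 4 genes with large gaps between tumours are shown because these genes were high and low together; they are human sequence, and the mouse promoters were not used here. Capitals mark the E-box CAGCTG, the TATA motif TATAAA, the CArG box bound by serum response factor and the MEF2 consensus, each searched on both strands, with no overlap between the marked matches. They are ACTA1 (chr1:229434045-229434344, minus strand), CKM (chr19:45322826-45323125, minus strand), MYH4 (chr17:10469510-10469809, minus strand) and the downstream of the windows of MYL1 (chr2:210303566-210303865, minus strand).
ACTA1: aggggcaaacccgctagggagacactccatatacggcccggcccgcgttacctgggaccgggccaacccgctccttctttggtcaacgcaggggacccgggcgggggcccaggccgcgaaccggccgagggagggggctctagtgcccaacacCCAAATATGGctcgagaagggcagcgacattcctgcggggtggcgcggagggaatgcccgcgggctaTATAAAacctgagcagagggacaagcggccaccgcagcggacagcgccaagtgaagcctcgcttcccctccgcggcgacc
CKM: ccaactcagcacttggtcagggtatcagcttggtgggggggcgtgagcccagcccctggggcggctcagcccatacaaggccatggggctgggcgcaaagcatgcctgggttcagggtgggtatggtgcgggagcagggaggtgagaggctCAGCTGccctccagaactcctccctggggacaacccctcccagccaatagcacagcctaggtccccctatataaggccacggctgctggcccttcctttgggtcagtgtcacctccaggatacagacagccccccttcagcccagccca
MYH4: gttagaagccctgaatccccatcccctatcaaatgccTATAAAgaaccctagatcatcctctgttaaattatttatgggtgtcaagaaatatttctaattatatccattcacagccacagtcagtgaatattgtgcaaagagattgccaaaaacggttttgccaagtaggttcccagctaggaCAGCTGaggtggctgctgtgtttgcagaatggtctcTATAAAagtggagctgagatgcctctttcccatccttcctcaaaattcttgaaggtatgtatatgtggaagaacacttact
MYL1: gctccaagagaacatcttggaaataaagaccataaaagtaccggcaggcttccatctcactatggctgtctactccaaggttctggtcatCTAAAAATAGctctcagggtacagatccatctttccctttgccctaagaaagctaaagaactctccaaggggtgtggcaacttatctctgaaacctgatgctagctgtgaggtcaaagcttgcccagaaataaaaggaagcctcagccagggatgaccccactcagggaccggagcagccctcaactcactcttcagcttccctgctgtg
ACTA1 held a CArG box and a TATAAA, CKM a CAGCTG, MYH4 a CAGCTG and TATAAA at 2 places, and this MYL1 window a MEF2 consensus. CAGCTG was in 38.7% of the 31 windows and in 17.9% of all 35116 promoter windows in the table. TATAAA was in 25.8% against 11.5%, the MEF2 consensus in 9.68% against 0.572%, and the CArG box in 9.68% against 1.29%. The MEF2 and CArG matches were in only 3 windows each, from 3 and 2 genes. SPEG, which did not follow the contractile genes, also had a CAGCTG and a MEF2 match. A match is a description of letters, not a shown binding site.

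Against this spread, a difference between on and off dox was seen for SPEG. Of the 35 genes, 29 passed the low-count filter, and the 6 others (TNNI1, MB, MYOT, TCAP, TRDN and MYOZ1) had 7 to 258 counts over the 6 tumours. Counts in off-dox tumour 4 alone did not pass a gene: MYOZ1 had 246 there and at most 6 elsewhere, while MYLPF and MYBPC1, which passed, also had 11 and 13 in off-dox tumour 2. The genes that passed are thus in part those high in these off-dox tumours. By edgeR's quasi-likelihood test 1 of the 29 fell on dox at an adjusted p under 0.05 and 0 rose, against 0.591% and 0.465% of the 21308 genes tested (1.06% in either direction). SPEG fell with a log2 fold change of -2.07 (SE 0.32, 95% interval -2.78 to -1.35, adjusted p = 0.0198). It stayed past the threshold without any 1 tumour (log2 fold change -2.57 to -1.70, adjusted p 0.0318 to 0.0450), but not in a fit of 4 tumours with the replicate number as a block (-2.02, adjusted p = 0.156).

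Apart from SPEG, the tumours of the groups were separate for TNNT1 and TNNC1. TNNT1 had a log2 fold change of -1.68 (SE 0.43, 95% interval -2.62 to -0.73) but did not pass over all genes (adjusted p = 0.101). TNNC1 had a log2 fold change of 0.89 (SE 0.20, 95% interval 0.44 to 1.35), and did not pass either (adjusted p = 0.0717). Both passed with DESeq2 (adjusted p = 0.00286 and 0.00396). Of the 22 genes given an adjusted p by DESeq2, 3 were called lower (SPEG, TNNT1 and MYL1), against 1.94% of all genes tested. MYL1 had counts in off-dox tumours 2 and 4 only, so its direction was set by the filter and the share is a description only. Over all alternative settings, DESeq2 included, the adjusted p ranged from 0.00286 to 0.405 for TNNT1 and from 0.00396 to 0.295 for TNNC1. With no low-count filter both also passed by edgeR (adjusted p = 0.00700 and 0.0116). On-dox values all below or all above those off dox were seen in 2 and 1 of the 35 genes, against 11.5% of tested genes in each direction.

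Large negative fold changes of the contractile genes came with errors of the same order. The median log2 fold change of the 29 genes was -3.93, against -0.0031 over all genes tested, and 28 of the 29 were below 0 against 50.4%. In 26 the log2 fold change was -1 or lower, against 3.84%, and in 14 the unadjusted p was under 0.05 with a lower level on dox, against 7.42%. Some of the 29, such as MYL1 and MYH7, passed the filter only through counts in off-dox tumours 2 and 4. For such genes a negative value was set by the filter, so these shares are a description only. The median SE was 1.72, against 0.23 over all genes. In 32 of the 35 genes the on-dox and off-dox tumours overlapped. MYH4, for example, was lower in off-dox tumours 1 and 3 than in either on-dox tumour. For MYH4 it was -4.55 (SE 2.19; edgeR adjusted p = 0.384), for ACTA1 -3.97 (SE 1.72; 0.329) and for CKM -4.66 (SE 2.27; 0.391). MYL1 and MYH7 had no counts on dox. With the floor of 3 counts over both on-dox tumours, the off-dox means were at least 71.2-fold and 116-fold higher. Without off-dox tumour 4 these bounds were 8.65-fold and 22.5-fold. They cover counting error on dox only, not the spread between off-dox tumours. In off-dox tumours 1 and 3, MYL1 had 0 and 0 counts and MYH7 had 0 and 1. By edgeR their log2 fold changes were -9.75 (SE 3.87, adjusted p = 0.292) and -10.5 (SE 3.88, adjusted p = 0.260). The upper ends of their intervals were -1.09 and -1.76. As both genes passed the filter only through off-dox tumours 2 and 4, these ends are no test of a fall on dox. DES (log2 fold change -3.72, SE 1.47) and TTN (-1.47, SE 0.74) had adjusted p values of 0.283 and 0.403.

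Without off-dox tumour 4, 21 of the genes passed the filter and their median log2 fold change was -0.70, with 18 below 0 and 3 above. The lowest were DES at -2.28 (SE 1.19), MYH1 at -2.21 (SE 1.77) and ACTN3 at -2.19 (SE 1.17), none of them called. RYR1 was at -1.47 and ACTA1 at -1.36. That of MYH4 was then -1.38 (SE 1.60), of CKM -0.65 (SE 1.49), of TTN -0.30 (SE 0.24) and of NEB -0.09 (SE 0.30). ENO3 and CKMT2 turned from -0.50 and -0.19 to 0.19 and 0.09. SPEG, at -1.93 (SE 0.33, adjusted p = 0.0401), was again the 1 gene called. With no low-count filter, where 39242 genes entered the fit, edgeR called 22 of the 35 lower and 1 higher, against 1.17% and 0.79% of all genes. In 20 of these 22 the groups overlapped.

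**Figure D4:**
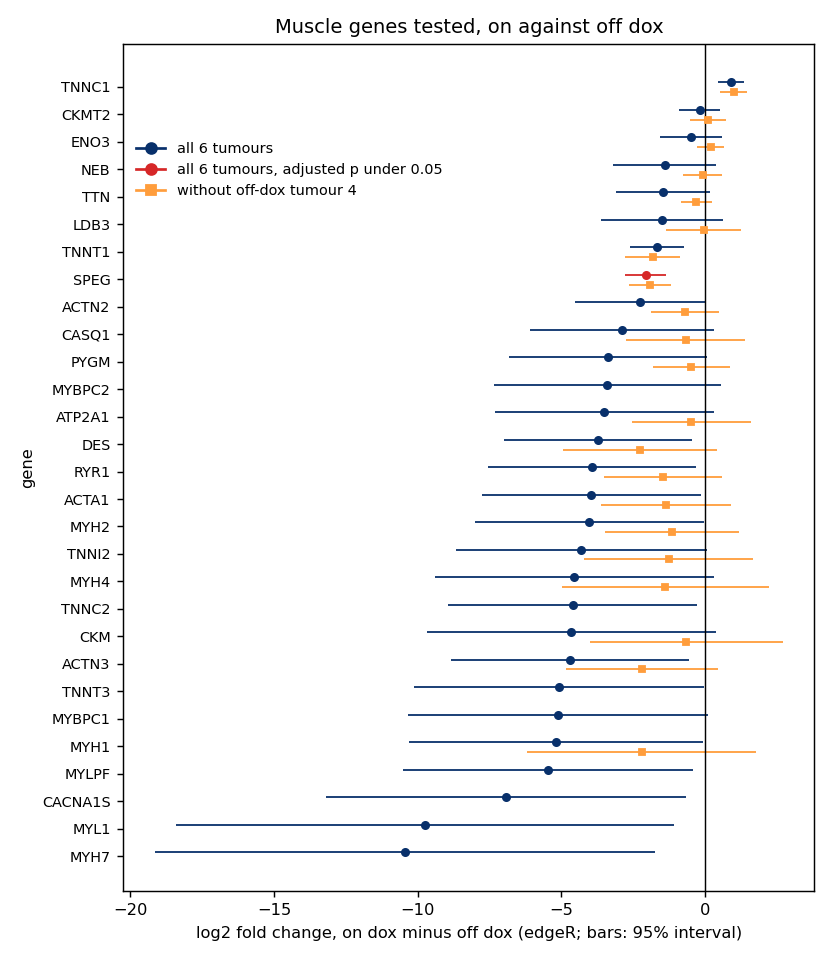
Log2 fold change on dox minus off dox with its 95% interval (edgeR) for the 29 genes tested, with all 6 tumours (circles, red where the adjusted p is under 0.05) and without off-dox tumour 4 (orange squares, 21 genes). SPEG is the gene called, and the values of MYH4 and CKM move from -4.55 and -4.66 to -1.38 and -0.65 without that tumour.

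Among markers of other tissues, the cardiac list was the 1 that was also highest in off-dox tumour 4. In off-dox tumour 4 the 10 cardiac genes summed to 57.1 CPM, against 3.97 to 14.4 CPM elsewhere, through ACTC1 and MYH6, while TNNT2 was at 2.06 CPM there and at 2.11 to 5.23 CPM in the others. The 10 smooth muscle genes were at 274 to 310 CPM off dox, with off-dox tumour 4 at 280 CPM, and at 206 and 193 CPM on dox. In this list SMTN (log2 fold change -1.25, edgeR adjusted p = 0.00815) and TAGLN (-1.08, adjusted p = 0.0156) fell on dox, 2 of 8 tested, against 0.591% of all genes tested. Adipocyte genes were highest in another tumour: the 14 genes summed to 62.2 CPM in off-dox tumour 3 and to 4.58 to 12.8 CPM elsewhere, with LPL at 30.8 CPM and PCK1 at 17.2 CPM there. The 13 fibroblast genes were highest in off-dox tumour 1, at 885 CPM, against 205 CPM in off-dox tumour 4 and 185 to 402 CPM in the other 4. The summed muscle, adipocyte and fibroblast lists were thus each highest in a different off-dox tumour. Not every gene of a list followed its sum. Of the adipocyte genes, ADIPOQ and RETN had 0 counts in all tumours. CFD was highest in off-dox tumour 1 (1.85 CPM) and PLIN4 in off-dox tumour 4 (1.22 CPM). Of the fibroblast genes, THY1 was highest in off-dox tumour 4 (1.30 CPM) and MFAP5 in on-dox tumour 2 (13.9 CPM).

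For the other lists off-dox tumour 4 was not the highest tumour, and their part in the muscle values was not tested. The 11 endothelial genes counted here summed to 29.9 to 36.6 CPM, with 31.7 CPM in off-dox tumour 4. The 11 myeloid genes counted here were at 23.6 to 46.7 CPM, with 30.9 CPM in off-dox tumour 4. Genes of Schwann cells and nerve were at 63.7 to 88.1 CPM, skin keratinocyte genes at 5.61 to 10.1 CPM and erythroid genes at 0.387 to 1.81 CPM. The 8 carcinoma markers were at 1409 CPM in off-dox tumour 4, within the range of 1130 to 1621 CPM of the others. Of the further striated muscle genes, EEF1A2 fell on dox (log2 fold change -1.68, edgeR adjusted p = 0.00690), 1 of 35 tested against 0.591% of all genes, with 17.2 to 26.4 CPM off dox and 7.09 and 5.59 CPM on dox. In the fibroblast list the matrix gene MFAP5 rose, 1 of 12 tested against 0.465% of all genes (4.66 to 6.62 CPM off dox, 9.76 and 13.9 CPM on dox). The median log2 fold changes on dox were -0.37 for the further striated genes, 0.06 for the regulators, -0.52 for cardiac, -0.72 for smooth muscle, -2.06 for adipocyte and -0.28 for fibroblast genes. They were -0.34 for endothelial, 0.36 for myeloid, -0.42 for nerve, 0.07 for keratinocyte, -1.43 for erythroid and 0.04 for carcinoma genes. The keratinocyte and erythroid medians rest on 2 genes tested each and the adipocyte median on 7. No gene of these 3 lists was called.

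**Figure D5:**
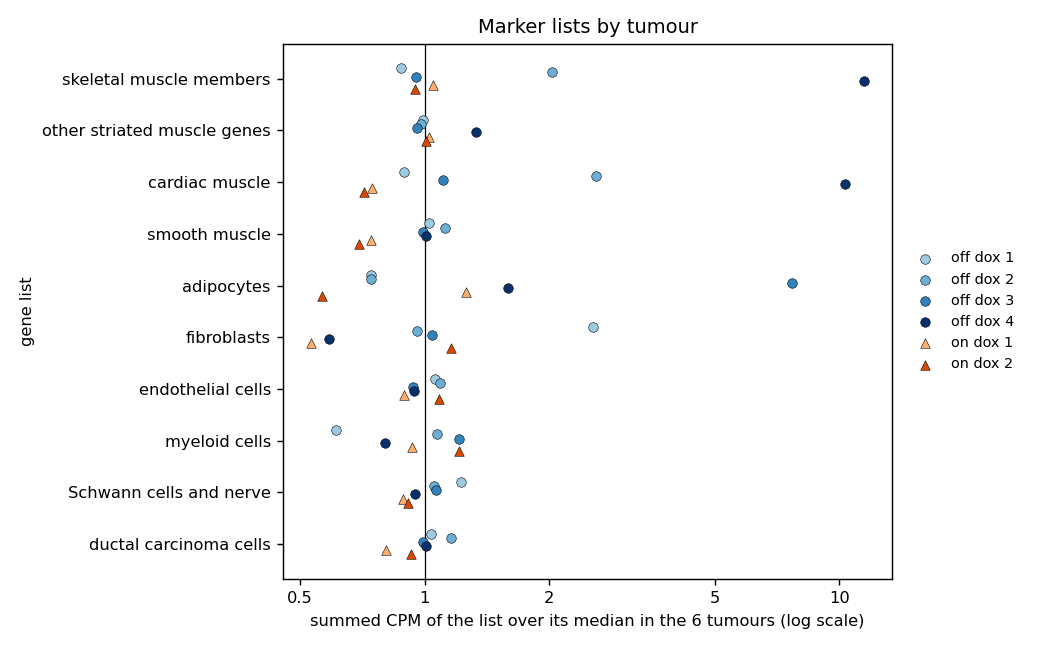
Summed CPM of the muscle set and of most marker lists in each tumour, divided by the median over the 6 tumours (log scale, circles off dox, triangles on dox). The regulator, skin keratinocyte and erythroid lists are not drawn. The muscle and cardiac lists are highest in off-dox tumour 4, the adipocyte list in off-dox tumour 3 and the fibroblast list in off-dox tumour 1.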

How the data were processed

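RNA of 6 tumours was measured, 4 off and 2 on doxycycline, grouped by the sample labels. The authors deposited whole-number counts per gene. STAR, HTSeq and limma with the human build hg19 are named per the submitters' processing notes. Their roles and versions, the strand setting, the annotation release and how mouse reads were treated are not stated. Of 57798 lines, 25 with a repeated identifier were removed. Missing symbols were filled by identifier from GENCODE 29, which also gave merged exon lengths for values per kilobase; it is on another build and was used for no coordinate. No pair of tumours was a duplicate (chi-square per degree of freedom 9.24 to 50.2).

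The counts of all genes were fitted with edgeR 4.0.16 in R 4.3.3 (TMM, filterByExpr, quasi-likelihood F test, Benjamini-Hochberg over 21308 genes, threshold 0.05). The biological coefficient of variation was 18.8%. In simulated counts for 20663 genes, 75% of genes changed 2-fold and 96% of those changed 4-fold were recovered, with 17 false calls of 188. The changed genes were drawn at random from the more abundant genes, each with its own estimated spread. These rates do not carry over to the muscle genes, whose median SE was 1.72 against 0.23 over all genes tested. The labels name separate tumours of 1 cell line, so p-values measure the spread between these tumours.

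The 35 genes and the marker lists were chosen with earlier results of these data known. Genes named are all 35, ME3, up to 4 of each list by mean CPM, and the 10 other genes with the largest ratio of off-dox tumour 4 to the highest other tumour at 5 CPM or more. Further list genes were named after their values were seen. Alternatives were DESeq2 1.42.0, limma voom (limma 3.58.1), other scalings and filters, a robust fit, a replicate block and leaving out each tumour. PECAM1 and MRC1 were not found by symbol. A few genes of the lists are not reported here by name. Motifs were searched with Python 3.11.15.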

Additional observations from a re-analysis of the deposited data

Results flagged for a closer look

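In 27 of the 35 muscle genes the CPM of off-dox tumour 4 lay apart from those of the other 3 off-dox tumours: its gap to the next tumour, divided by the range of the 4, was above Dixon's 95% limit. Such a gap, for any of the 4 off-dox tumours and on the high or low side, was seen in 5.21% of the 21308 genes tested. The 27 include MYOT, TRDN and MYOZ1, which did not pass the low-count filter. The 35 genes were chosen with earlier results of these data known and are read in the same tumours. They are therefore not independent trials, and the 2 shares are a description only. The values of off-dox tumour 4 were as follows. For the thick filament they were 10.7 CPM for MYLPF, 15.4 CPM for MYL1, 141 CPM for MYH1, 61.0 CPM for MYH2, 196 CPM for MYH4, 23.6 CPM for MYH7, 11.1 CPM for MYBPC1 and 8.97 CPM for MYBPC2. For the thin filament they were 17.7 CPM for TNNC2, 18.9 CPM for TNNI2, 30.8 CPM for TNNT3, 267 CPM for ACTA1 and 153 CPM for NEB. For titin and the Z-disc they were 1205 CPM for TTN, 15.3 CPM for ACTN2, 36.3 CPM for ACTN3, 1.91 CPM for MYOT, 5.68 CPM for LDB3 and 9.38 CPM for MYOZ1. For calcium handling they were 9.04 CPM for CASQ1, 136 CPM for ATP2A1, 61.9 CPM for RYR1, 0.801 CPM for TRDN and 11.0 CPM for CACNA1S. For energy supply they were 144 CPM for CKM, 44.1 CPM for PYGM and 35.4 CPM for ENO3.

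The same gap was seen outside the 35 genes for ACTC1 at 37.5 CPM, MYH13 at 28.3 CPM, MYH8 at 22.4 CPM and MYH3 at 21.1 CPM, each in off-dox tumour 4. Among the summed lists it was seen for the further striated muscle genes, at 687 CPM in off-dox tumour 4, and for the adipocyte genes, at 62.2 CPM in off-dox tumour 3.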

How the results depend on the processing

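Setting each tested muscle gene against each alternative, 328 comparisons kept direction and side of the threshold and 5 turned direction. SPEG lost its call with the replicate block, and 25 calls were gained, 22 without the low-count filter and 3 with DESeq2, the latter for MYL1, TNNC1 and TNNT1; the cause was not tested. DESeq2 gave no adjusted p for 7 of the 29 genes. ENO3 turned to 0.345 and CKMT2 to 0.046 with the replicate block; without off-dox tumour 4 they were at 0.186 and 0.092, and CKMT2 was at 0.157 without on-dox tumour 2. With 1 tumour left out ENO3 ranged from -0.73 to 0.19 and CKMT2 from -0.65 to 0.16.

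The number of the 35 genes called lower and higher was 22 and 1 with no low-count filter, 3 and 1 with DESeq2, and 0 and 0 with the replicate block. The median log2 fold change of the muscle genes that passed the filter was -0.83 with the block. It was -2.06 where at least 1 CPM was required in at least 4 tumours. With 1 tumour left out it ranged from -4.34 to -0.70, the latter without off-dox tumour 4. These medians are over different sets of genes: 21 passed without off-dox tumour 4, against 29 in the main fit. Over all genes the count of calls, lower and higher, was 225 (126 and 99). It was 770 (460 and 310) with no low-count filter, 724 (413 and 311) with DESeq2 and 0 (0 and 0) with the block, where replicate numbers pair the tumours by number alone. Leaving out 1 tumour gave 72 to 562 calls, 33 to 331 lower and 39 to 231 higher; the count was 96, 80, 83 and 133 without off-dox tumours 1 to 4, and 72 and 562 without on-dox tumours 1 and 2. A tumour left alone on dox is assumed to vary like the others. Same-numbered tumours did not deviate together (correlation -0.032 and 0.0063).

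Without TTN the shares of the summed level were 3.41% and 4.08% in on-dox tumours 1 and 2, in place of 6.05% and 5.47%, and 2.54% and 3.25% in off-dox tumours 1 and 3, in place of 5.06% and 5.51%. Not divided by length, the fast share was 30.6% and 48.3% on dox, in place of 11.8% and 22.5%, and 14.4% and 24.8% in off-dox tumours 1 and 3, in place of 7.63% and 13.5%.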

Other observations

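Several genes of skeletal muscle, some of them of slow fibres, were hardly counted in off-dox tumour 4, where ACTA1 had 7010 counts and CKM 3783. MB had 1 count, the muscle phosphoglycerate mutase PGAM2 and the cytochrome oxidase subunit COX6A2 had 0, the calcium pump inhibitor SLN had 4, the slow regulatory light chain MYL2 had 11 and TNNI1 had 17. PGAM2 and COX6A2 had no counts in any of the 6 tumours. The ubiquitin ligase gene TRIM63 had 22 counts in off-dox tumour 4 and 0 in the other 5.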
